A study of Homo sapiens with 16 samples.

Results

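DEAD box (DDX) and DEAH box (DHX) proteins are the main families of RNA helicases in human cells. Every identifier in the deposited gene tables whose current symbol begins with DDX or DHX followed by a digit was taken as a member, provided that it was listed in at least 1 library. This gave 53 genes, 37 DDX and 16 DHX, of 16697 identifiers listed in at least 1 of 16 libraries. The family was singled out because earlier work on these data had found DDX genes higher after cinobufagin in both cell lines. Differences between treated and untreated libraries are therefore given as a description, without p-values.

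The helicases bind RNA through a conserved ATPase core and use ATP to pry apart short duplexes or to strip proteins from RNA. DEAD box enzymes open duplexes locally and usually act at a fixed step of splicing, ribosome assembly, export or translation, whereas DEAH box enzymes tend to move along a strand and are often switched on by partners that carry a G-patch. In the nucleolus many of them remodel the precursors of ribosomal RNA, and a few related proteins sense viral RNA instead.

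The study used HepG2 and Huh-7, established human liver cancer cell lines, and cinobufagin, a bufadienolide from toad venom known as an inhibitor of the sodium pump. HepG2 was represented by 1 untreated library (0 h), 3 libraries after 12 h at 5 µmol/L and 3 libraries after 24 h at 5 µmol/L. Huh-7 was represented by 3 untreated libraries, 3 after 12 h at that dose and 3 after 24 h. No genotype, transgene or second agent is given in the labels for any group, and no vehicle is stated in the sources used here. The untreated libraries are entered here as 0 h, and when they were harvested is not given in the sources used here. Drug and culture time thus cannot be told apart in any comparison of treated with untreated cells. The same holds for 24 h against 12 h. Whether libraries of 1 group stem from separate cultures is not said in the labels, so a p-value here covers only library-to-library spread, which may be technical.

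The libraries held 9543048 to 10457853 expected counts, which are RSEM's estimates of the reads from each gene. A count of 0 allows up to 3 counts, or 0.287 to 0.314 CPM (counts scaled to a common library total), where counting error alone is considered. On log2 CPM the lowest correlation between replicates was 0.9918. Of 10 hepatocyte markers 7 were analysed here, and the label was not borne out by them: AFP, APOA1, APOE, TF and AHSG had at most 0.103 CPM in untreated cells of either line. FGB had 2.61 CPM in untreated HepG2 and 1.91 CPM in untreated Huh-7, and HNF4A 0.709 CPM and 37.8 CPM. The summed level of the 7 was 3.42 CPM in untreated HepG2, 2.57 to 3.57 CPM at 12 h and 4.06 to 6.49 CPM at 24 h, and in Huh-7 it was 39.2 to 41.0 CPM untreated, 4.02 to 4.71 CPM at 12 h and 3.42 to 4.28 CPM at 24 h. Of 8 markers of other cells KRT7 stood at 994 CPM in untreated HepG2 and 477 CPM in untreated Huh-7. In the same order COL1A1 had 71.1 and 45.7 CPM, KRT19 168 and 0.172 CPM, and EPCAM 0.81 and 26.8 CPM. PECAM1 had 2.87 and 2.76 CPM, PTPRC 0.608 and 1.63 CPM, VWF 0.101 and 0.72 CPM, and COL1A2 was at 0 in both. The sum of the 8 was 1238, 667 to 688 and 466 to 495.5 CPM in HepG2 at 0, 12 and 24 h, and 549 to 561, 288 to 300.3 and 193 to 204.5 CPM in Huh-7. These markers moved with treatment, and their part in the results below was not tested.

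Promoter sequences are shown first for DDX21 and DDX50, sister genes that lie side by side on chromosome 10 and code for closely related nucleolar helicases. The pair was chosen after its values were seen, because the transcripts were called in opposite directions, as described below. The stretch from 190 to 41 bases upstream of the RefSeq start is shown for both, and for DDX3X and DHX36, helicases of the mRNA that were higher in treated cells. Capitals mark an ETS site (CCGGAAGT) in DDX21 and DDX50 and a cyclic AMP response element (TGACGTCA) in DHX36. The stretches are RefSeq sequence on GRCh38.p14, at chr10:68955980-68956129 (plus strand) for DDX21, chr10:68901125-68901274 (plus strand) for DDX50, chrX:41333118-41333267 (plus strand) for DDX3X and chr3:154324528-154324677 (minus strand) for DHX36.
DDX21: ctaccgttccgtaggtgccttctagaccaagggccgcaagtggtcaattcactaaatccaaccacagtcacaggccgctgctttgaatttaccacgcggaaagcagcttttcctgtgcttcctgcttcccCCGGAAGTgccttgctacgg
DDX50: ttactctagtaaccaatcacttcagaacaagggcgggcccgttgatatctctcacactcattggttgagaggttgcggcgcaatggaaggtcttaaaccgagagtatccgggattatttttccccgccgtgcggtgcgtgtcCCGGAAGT
DDX3X: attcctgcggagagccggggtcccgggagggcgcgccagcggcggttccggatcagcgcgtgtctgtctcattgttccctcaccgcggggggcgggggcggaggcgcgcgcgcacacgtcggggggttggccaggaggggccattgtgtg
DHX36: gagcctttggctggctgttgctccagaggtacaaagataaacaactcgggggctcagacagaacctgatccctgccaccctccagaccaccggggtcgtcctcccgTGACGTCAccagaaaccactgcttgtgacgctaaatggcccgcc

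The starts of DDX50 and DDX21 lie 54855 bases apart on the same strand. The ETS site begins 60 bases before the start in DDX21 and 48 bases before it in DDX50, so the same 8 letters precede a gene that was higher and a gene that was lower in treated cells. Of the 53 members 48 matched a RefSeq promoter of 300 bases, 250 before and 50 after the start. DDX18, DDX49, DDX52, DHX33 and DHX58 were not matched. On either strand the ETS letters were found in 11 member promoters (22.9%), against 8.41% of the promoters of the 11036 tested genes with one and 4.44% of all 27305. The cyclic AMP response element was found in 5 member promoters (10.4%), against 3.20% of tested genes, and begins 84 bases before the start in DHX36. The E-box CACGTG was found in 8 (16.7%), against 10.1% of tested genes, and the AP-1 letters TGANTCA in 2 (4.17%), against 4.76%. These are matches of letters and not sites shown to be bound, and DDX3X holds none of the 4 motifs in this window. ETS matches before the start were found in DDX21, DDX5, DDX39B, DDX56 and DHX8, each called higher in at least 1 treated group. They were also found in DDX50, which was called lower, and in DHX30, which was not called. The ETS matches of DDX47, DHX37, DHX34 and DDX27 lie at or just after the start.

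The helicases together took a larger share of all counts in treated cells of both lines. In HepG2 the family held 0.567% of the counts in the untreated library, 0.778% ± 0.00838 at 12 h and 0.767% ± 0.0156 at 24 h (SD, n = 3 at each treated time). In Huh-7 it held 0.628% ± 0.00388 untreated, 0.879% ± 0.0105 at 12 h and 0.894% ± 0.00954 at 24 h (SD, n = 3 each). The treated libraries ran from 0.756% to 0.788% in HepG2 and from 0.871% to 0.903% in Huh-7, above every untreated library of their line. The share of FPKM, which divides each count by the length of the gene, gave the same order for treated and untreated cells. It was 0.379%, 0.512% ± 0.00478 and 0.511% ± 0.0121 in HepG2 at 0, 12 and 24 h, and 0.385% ± 0.00530, 0.557% ± 0.0101 and 0.566% ± 0.0103 in Huh-7. In these bulk libraries fewer cells of a type and less RNA per cell cannot be told apart.

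**Figure D1:**
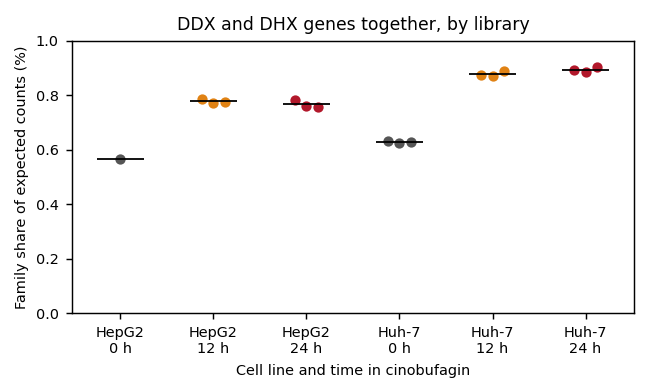
Share of all expected counts that fell on DDX and DHX genes (percent, axis from 0), by cell line and hours in cinobufagin, with a point for each library and a line for each group mean. The treated libraries lie between 0.756% and 0.788% in HepG2 and between 0.871% and 0.903% in Huh-7, above the untreated ones at 0.567% and at 0.624% to 0.632%.

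The most abundant members made up more of the family's total in treated cells. The 5 highest members of each group made up 31.8% of the family's summed FPKM in untreated HepG2, 42.7% at 12 h and 36.8% at 24 h. In Huh-7 they made up 30.9% untreated, 47.3% at 12 h and 43.7% at 24 h. The median member stood at 21.1, 22.5 and 24.5 FPKM in HepG2 at 0, 12 and 24 h and at 24.8, 22.6 and 30.0 FPKM in Huh-7. Averaged over the 6 groups, the highest levels were those of DDX39B with 265 FPKM, DDX3X with 195 FPKM, DDX5 with 154 FPKM, DDX21 with 124 FPKM, DDX39A with 91.4 FPKM and DDX47 with 89.0 FPKM. DDX17 with 77.4 FPKM and DHX15 with 73.8 FPKM came next. The order of neighbours depended on the group: at 24 h in HepG2 DDX39A had 52.4 ± 1.90 FPKM and DDX47 94.4 ± 5.38 FPKM, while in untreated Huh-7 DDX39A had 64.5 ± 2.72 FPKM and DDX47 45.6 ± 1.89 FPKM. At 24 h in Huh-7 their levels were 115 ± 4.03 and 106 ± 5.01 FPKM.

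**Figure D2:**
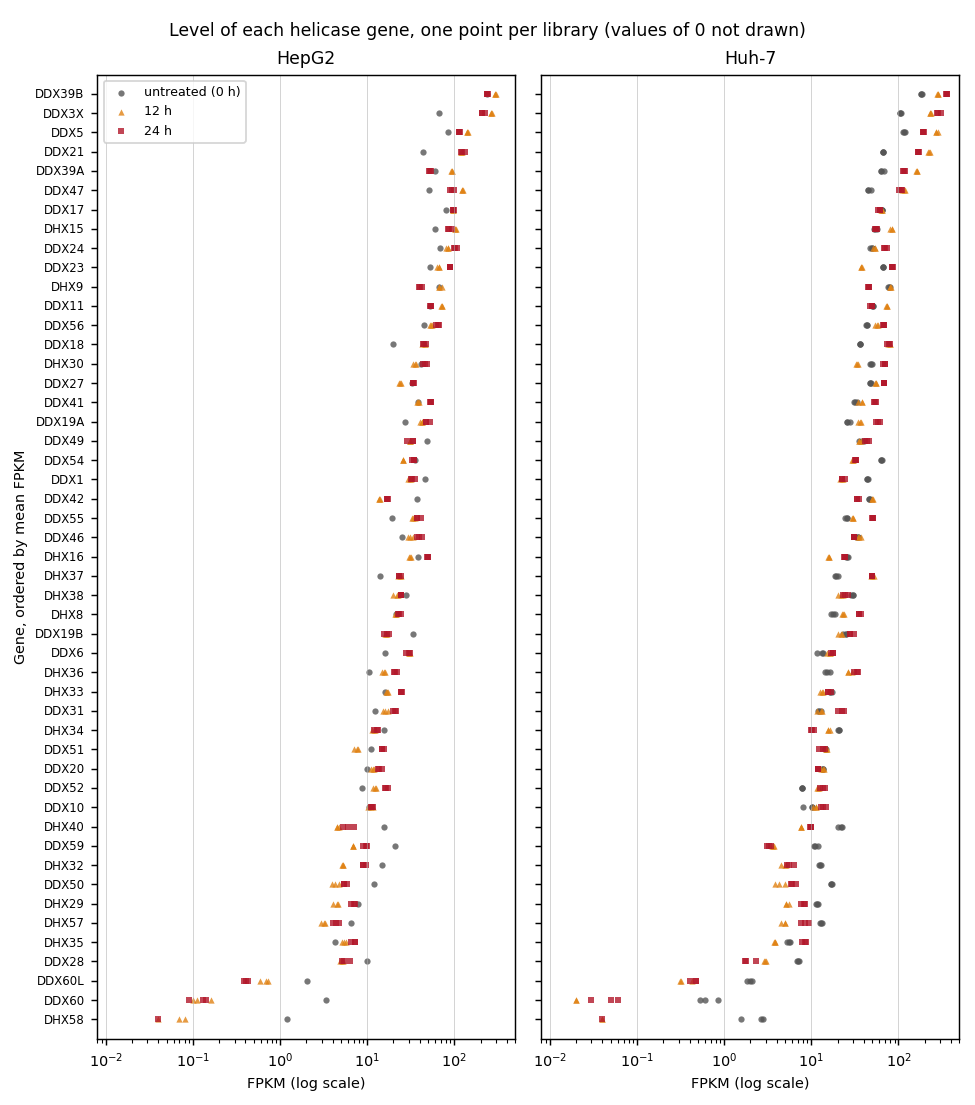
Level of each of the 49 tested helicase genes in every library as FPKM (horizontal log scale), with HepG2 on the left, Huh-7 on the right and genes ordered by mean FPKM from top to bottom. DDX39B and DDX3X stand at the top with means of 265 and 195 FPKM, the treated points of DDX3X lie to the right of the untreated ones in both lines, and values of 0 are not drawn.

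At the low end, DDX25 had a single count in 1 library, DDX53 had at most 2 counts in 3 libraries and DDX43 at most 3 counts in 7 libraries. These are helicases known from germ cells. Together with the Y-linked DDX3Y, whose level is not given, they did not pass the filter on low counts, so 49 members were tested, 33 DDX and 16 DHX. Another germline helicase, DDX4, was listed in no library. Of the 53 members 47 were listed in all 16 libraries. Replicate libraries lay close together, with a median coefficient of variation of 3.26% over members and groups and a maximum of 15.7%. Expected counts were not whole numbers, within a tolerance of 1e-09, in 11 members. For DDX19A, DDX19B, DDX46, DDX51, DDX52, DDX55 and DHX33 this was so in all 16 libraries. For DDX3X, DDX3Y, DDX60 and DDX60L it was so in some libraries. Reads shared with other genes were thus divided, and the separate levels of these 11 members are less certain. Which genes shared the reads was not tested. The use of strand in counting is not given in the sources used here, so reads of overlapping genes on opposite strands cannot be told apart.

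Against untreated cells of the same line, more members were called higher than lower at both times in both lines. A call required a Benjamini-Hochberg adjusted p under 0.05 in edgeR's quasi-likelihood test over 13633 genes and a change of at least 1 on the log2 scale. In HepG2, 11 of the 49 members were called higher at 12 h, where 14.3% of all tested genes were, and 8 were called lower, where 23.6% were. At 24 h in HepG2, 12 were called higher and 4 lower, beside 14.1% and 22.3% of all genes. In Huh-7 the counts were 11 higher and 7 lower at 12 h, beside 16.8% and 27.1% of all genes, and 16 higher and 6 lower at 24 h, beside 17.9% and 26.9%. Since the family was chosen for this contrast, nothing is read from these shares. The members not called numbered 30 and 33 in HepG2 and 31 and 27 in Huh-7 at 12 and 24 h.

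The counts depend on how the libraries were scaled. Under plain library size the calls were 4 higher and 10 lower in HepG2 at 12 h, 4 and 7 in HepG2 at 24 h, 7 and 11 in Huh-7 at 12 h, and 9 and 9 in Huh-7 at 24 h. Under upper-quartile scaling they were 7 higher and 8 lower, 8 and 7, 7 and 9, and 10 and 8 in the same order. No share of all genes was counted under either scaling, here or below, and the shares given above do not apply to these counts. These scalings shift log2 changes downward: the median of all genes was -0.09, -0.01, -0.10 and -0.04 under TMM, the scaling used here unless another is named, and -0.49, -0.28, -0.51 and -0.39 under plain library size. The median member stood above the median gene by about the same amount throughout. It was 0.46, 0.43, 0.44 and 0.55 under TMM (HepG2 at 12 and 24 h, then Huh-7). Under plain library size it was 0.07, 0.16, 0.03 and 0.20.

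The calls were also counted by class, without reading anything from the split. Among 33 tested DDX genes 9 were called higher and 5 lower in HepG2 at 12 h, 10 and 2 at 24 h, and in Huh-7 8 and 4 at 12 h and 13 and 5 at 24 h. Among 16 DHX genes 2 were called higher and 3 lower in HepG2 at 12 h, 2 and 2 at 24 h, and in Huh-7 3 and 3 at 12 h and 3 and 1 at 24 h. The median log2 change was 0.67 and 0.70 for DDX genes in HepG2 at 12 and 24 h and 0.54 and 0.80 in Huh-7. For DHX genes it was 0.14 and 0.26 in HepG2 and -0.08 and 0.17 in Huh-7.

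Of the 49 members 5 were called higher in all 4 comparisons of treated with untreated cells (DDX3X, DDX21, DDX47, DDX18 and DHX37), beside 5.85% of all tested genes, and 3 were called lower in all 4 (DHX58, DDX60 and DDX60L), beside 12.0%. No member was called higher in one comparison and lower in another, 20 were called in none, beside 33.9% of all genes, and the 4 comparisons share their untreated libraries within a line. DDX5, DDX39A, DDX52, DDX55, DDX19A and DHX36 were called higher in 3, and DDX50, DDX59 and DHX40 were called lower in 3. No gene called higher in 3 kept all of these calls under plain library size. Under upper-quartile scaling DHX37 left the higher group, leaving 4 genes, under plain library size DDX47 left it too, leaving 3, and under either scaling DDX50, DDX59 and DHX40 joined the lower group, giving 6 genes.

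**Figure D3:**
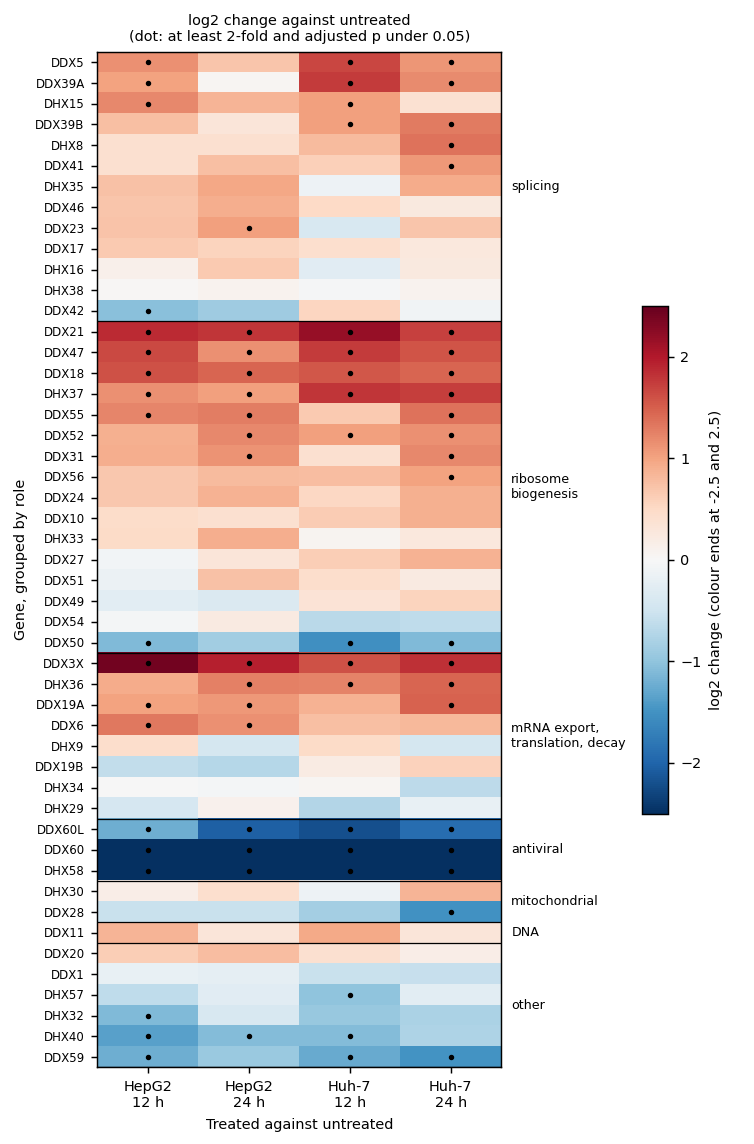
log2 change of each of the 49 tested helicase genes against untreated cells (colour, ending at -2.5 and 2.5), in columns for HepG2 at 12 and 24 h and Huh-7 at 12 and 24 h and in rows grouped by role, with a dot where a gene was called. All higher calls lie among splicing, ribosome and mRNA helicases, which hold 13, 16 and 8 of the 49 genes, and nothing is read from this. The genes of the antiviral role are lower in all 4 columns, where DHX58 and DDX60 are at the end of the colour scale and their fitted values are no bound.

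Ribosome biogenesis helicases, which work on ribosomal RNA precursors in the nucleolus, were the largest role with 16 tested members. Its counts under TMM, like those of the other roles and lists below, stand beside the shares of all genes called that are given above for each comparison. Counts under other scalings have no such share. In HepG2 5 of the 16 were called higher and 1 lower at 12 h, and 7 higher and 0 lower at 24 h, where the lowest was DDX50 at -0.87. In Huh-7 5 were called higher and 1 lower at 12 h, and 8 higher and 1 lower at 24 h. Under plain library size the higher calls were 3 and 3 in HepG2 and 4 and 5 in Huh-7, and the lower calls 1 and 1 in HepG2 and 2 and 1 in Huh-7. The median log2 change was 0.68 and 0.89 in HepG2 at 12 and 24 h, and 0.63 and 0.95 in Huh-7, with 0.28, 0.62, 0.21 and 0.60 under plain library size. The only member of this role called lower under TMM was DDX50, and plain library size added DDX54 in Huh-7 at 12 h.

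DDX21, a nucleolar helicase that couples ribosomal RNA transcription to its processing, had 176 CPM in untreated HepG2, 638, 638 and 646 CPM at 12 h, and 637, 605 and 589 CPM at 24 h. In Huh-7 it had 257, 255 and 256 CPM untreated, 1129.6, 1156 and 1188 CPM at 12 h, and 822, 833 and 840.0 CPM at 24 h. All treated libraries lay above all untreated ones of their line, and in Huh-7 the libraries at 12 h were the highest. The log2 change was 1.86 ± 0.0539 and 1.79 ± 0.0537 (SE) in HepG2 at 12 and 24 h, and 2.18 ± 0.0341 and 1.70 ± 0.0339 in Huh-7. Its sister gene DDX50 went the other way, with 26.6 CPM in untreated HepG2, 13.6, 12.3 and 11.4 CPM at 12 h, and 15.2, 14.1 and 14.5 CPM at 24 h. In Huh-7 DDX50 had 35.6, 35.6 and 35.5 CPM untreated, 14.1, 10.7 and 11.8 CPM at 12 h, and 15.9, 15.9 and 17.6 CPM at 24 h. Its treated libraries all lay below the untreated ones, with log2 changes of -1.10 and -0.87 in HepG2 and -1.54 and -1.11 in Huh-7, of which that in HepG2 at 24 h was not called.

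DDX47, which takes part in early processing of ribosomal RNA, had 79.8 CPM in untreated HepG2, 249.8, 255 and 251 CPM at 12 h, and 186, 176 and 169 CPM at 24 h. The Huh-7 libraries had 66.0, 66.1 and 71.4 CPM untreated, 235, 218 and 228 CPM at 12 h, and 205, 209 and 188 CPM at 24 h. Treated and untreated libraries did not overlap in either line. Its log2 change was 1.66 ± 0.0709 and 1.15 ± 0.0712 (SE) in HepG2, of which the value at 24 h was 0.88 and not called under plain library size, and 1.74 ± 0.0487 and 1.56 ± 0.0488 in Huh-7.

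DDX18, a nucleolar helicase of the large ribosomal subunit pathway, had 64.4 CPM in untreated HepG2, 199.6, 184 and 195 CPM at 12 h, and 185, 174 and 172 CPM at 24 h. Huh-7 had 112, 111 and 112 CPM untreated, 314, 335 and 333 CPM at 12 h, and 312, 295 and 313 CPM at 24 h. Its treated libraries lay above the untreated ones in both lines, and those of 12 and 24 h overlapped in HepG2 but not in Huh-7. It had log2 changes of 1.58 ± 0.0696 and 1.46 ± 0.0695 (SE) in HepG2 and 1.55 ± 0.0418 and 1.46 ± 0.0417 in Huh-7. DHX37, which releases U3 RNA from the precursor of the small subunit, had 54.8 CPM in untreated HepG2, 126, 122 and 117 CPM at 12 h, and 109, 114 and 111 CPM at 24 h. In Huh-7 DHX37 had 70.7, 70.2 and 76.4 CPM untreated, 261, 247 and 238 CPM at 12 h, and 241, 239 and 237 CPM at 24 h. The treated libraries were again above the untreated ones, further so in Huh-7. The log2 change of DHX37 was 1.15 ± 0.0726 and 1.02 ± 0.0725 (SE) in HepG2, which under plain library size became 0.75 and 0.76 and was not called, and 1.78 ± 0.0443 and 1.72 ± 0.0442 in Huh-7.

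Among the other ribosome helicases, DDX52 and DDX55 were called higher in 3 comparisons each and DDX31 in 2. Under plain library size all calls of DDX52 were lost, at 0.94 in HepG2 at 24 h and 0.61 and 0.79 in Huh-7. Both calls of DDX31 were also lost, at 0.85 in each line at 24 h, and DDX55 lost that in HepG2 at 12 h, at 0.82. DDX52, of the small subunit pathway, had 48.5 CPM in untreated HepG2, 89.5 ± 3.02 CPM at 12 h and 112 ± 4.25 CPM at 24 h, and in Huh-7 41.7 ± 0.241, 85.0 ± 2.42 and 92.0 ± 5.12 CPM at 0, 12 and 24 h. DDX55, of the large subunit pathway, had 44.1 CPM, 103 ± 3.39 CPM and 107 ± 7.26 CPM in HepG2 at these times, and 55.1 ± 2.39, 86.7 ± 2.07 and 141 ± 2.27 CPM in Huh-7. DDX54 stood at 128 ± 1.45 CPM at 12 h and 155 ± 5.73 CPM at 24 h in HepG2 against 133 CPM untreated, and in Huh-7 at 143 ± 3.43 and 148 ± 4.33 CPM against 229 ± 3.20 CPM untreated. It was not called at either time in either line. DDX56 was called higher in Huh-7 at 24 h alone, with 205 ± 1.27 CPM against 102 ± 1.61 CPM untreated. That call too lay at the threshold, with a log2 change of 1.01 that was 0.98 and not called under RLE scaling and in DESeq2, and it was lost with any 1 of 4 libraries left out (Huh-7 untreated replicate 2, Huh-7 12 h replicate 1 and HepG2 12 h replicates 2 and 3).

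Splicing helicases numbered 13, all tested. In HepG2 3 were called higher and 1 lower at 12 h, and 1 higher and 0 lower at 24 h, where the lowest change was that of DDX42 at -0.88. In Huh-7 4 were called higher and 0 lower at 12 h, where the lowest was DDX23 at -0.41, and 5 higher and 0 lower at 24 h, where the lowest was DDX42 at -0.09. The medians were 0.70 and 0.66 in HepG2 at 12 and 24 h and 0.54 and 0.70 in Huh-7. With plain library size they were 0.30, 0.39, 0.12 and 0.35.

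DDX39B, also known as UAP56, joins the early spliceosome and hands spliced mRNA to the export machinery. It had 419 CPM in untreated HepG2, 720.5, 694 and 700.0 CPM at 12 h, and 516, 510.4 and 518 CPM at 24 h, a log2 change of 0.75 and 0.30 that was not called. In Huh-7 it had 315, 312 and 316 CPM untreated, 628, 643 and 649 CPM at 12 h, and 782, 781 and 758 CPM at 24 h, and the groups at the 3 times did not overlap. Its log2 change in Huh-7 was 1.03 ± 0.0317 at 12 h and 1.30 ± 0.0315 at 24 h (SE), which under plain library size were 0.61 and 0.95 and not called. Its paralog DDX39A had 79.9 CPM in untreated HepG2, 162, 164 and 157 CPM at 12 h, and 80.0, 82.5 and 87.2 CPM at 24 h. In Huh-7 DDX39A had 79.0, 79.0 and 85.5 CPM untreated, 273, 277 and 269 CPM at 12 h, and 185, 193 and 177 CPM at 24 h. At 24 h the gene was thus near its untreated level in HepG2, at a log2 change of 0.06 ± 0.0689 (SE), and above it in Huh-7, at 1.19 ± 0.0446. The Huh-7 value was 0.84 under plain library size and 0.91 under upper-quartile scaling, and was called under neither. At 12 h the change was 1.01 ± 0.0667 in HepG2 and 1.75 ± 0.0435 in Huh-7. The call in HepG2 at 12 h rests on the exact threshold: it was 0.996 and not called without the second HepG2 library of 12 h, and was also lost under every other scaling and in DESeq2.

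DDX5, a splicing factor and transcriptional cofactor also known as p68, had 286 CPM in untreated HepG2, 643, 628 and 615 CPM at 12 h, and 459.9, 463 and 469 CPM at 24 h. The Huh-7 libraries had 368, 380.1 and 364 CPM untreated, 1160.0, 1175 and 1204 CPM at 12 h, and 817, 799 and 776 CPM at 24 h. In both lines the libraries of 12 h were the highest and the untreated ones the lowest, without overlap. Its log2 change was 1.14 ± 0.0495 and 0.70 ± 0.0489 (SE) in HepG2, and 1.67 ± 0.0325 and 1.10 ± 0.0325 in Huh-7. The changes in HepG2 at 12 h and in Huh-7 at 24 h became 0.74 and 0.75 under plain library size and were not called. DDX17, its close relative p72, was not called at any time, with log2 changes of 0.66 and 0.55 in HepG2 and 0.42 and 0.26 in Huh-7. DHX15, which takes apart spent spliceosomes, was called higher at 12 h in both lines, with 349.5 ± 5.82 CPM in HepG2 against 153 CPM untreated and 272 ± 10.2 CPM in Huh-7 against 134 ± 6.11 CPM untreated. Without the second untreated Huh-7 library its log2 change in Huh-7 was 0.996 and not called. Under plain library size DHX15 lost both calls, at 0.79 in HepG2 and 0.61 in Huh-7. DHX38, a helicase of the catalytic steps, had log2 changes between -0.03 and 0.09 in the 4 comparisons and was not called.

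The mRNA helicases act in export, translation and decay, and 8 were tested. In HepG2 3 of the 8 were called higher at 12 h and 4 at 24 h, and in Huh-7 2 at 12 h and 3 at 24 h. None was called lower by edgeR's test in these comparisons, in which the lowest log2 change was -0.73, that of DHX29 in Huh-7 at 12 h. With plain library size DDX19B was called lower in HepG2 at 12 h, DHX29 in Huh-7 at 12 h and DHX34 in Huh-7 at 24 h.

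DDX3X, which helps ribosomes scan structured leaders of mRNA, had the largest positive log2 change of the 49 members in HepG2. It had 265 CPM in untreated HepG2, 1439, 1405 and 1406 CPM at 12 h, and 1061, 996 and 996 CPM at 24 h. Huh-7 libraries had 402, 399 and 397 CPM untreated, 1174, 1203 and 1210.0 CPM at 12 h, and 1381, 1357 and 1494 CPM at 24 h. The treated libraries lay far above the untreated ones, with 12 h highest in HepG2 and 24 h highest in Huh-7. The log2 change was 2.42 ± 0.0575 and 1.94 ± 0.0563 (SE) in HepG2, and 1.58 ± 0.0356 and 1.82 ± 0.0356 in Huh-7. In 3 libraries its expected count was not whole, so reads shared with another gene were divided there. Which gene that was, and how many reads were shared, was not tested.

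DDX6, which holds mRNAs in a repressed state and leads them to decapping, was called higher in HepG2 at both times, with 216 ± 3.59 CPM at 12 h and 191 ± 8.55 CPM at 24 h against 86.1 CPM untreated. In Huh-7 it had 109 ± 5.19 CPM at 12 h and 113 ± 3.46 CPM at 24 h against 65.0 ± 5.06 CPM untreated, log2 changes of 0.75 and 0.80 that were not called. Under plain library size DDX6 lost both calls in HepG2, at 0.93 and 0.88. DHX36, which unwinds G-quadruplexes, had 32.8 CPM in untreated HepG2, 62.6 ± 2.55 CPM at 12 h and 78.0 ± 2.58 CPM at 24 h, and in Huh-7 45.7 ± 2.85, 108 ± 7.69 and 125 ± 5.16 CPM at 0, 12 and 24 h. It was called higher in all but HepG2 at 12 h, where its log2 change was 0.94. Under plain library size DHX36 kept only its call in Huh-7 at 24 h, with 0.98 in HepG2 at 24 h and 0.82 in Huh-7 at 12 h. DDX19A, an export factor of the nuclear pore, was called higher in all but Huh-7 at 12 h, with log2 changes of 1.01 and 1.09 in HepG2 and 0.87 and 1.48 in Huh-7. DDX19A lost its call in HepG2 at 24 h under upper-quartile scaling (0.955) and plain library size (0.825). Its call in HepG2 at 12 h lay at the threshold and was lost under every other scaling, in DESeq2, and with the first HepG2 library of 12 h or any 1 of 4 Huh-7 libraries (the 3 untreated ones and replicate 1 of 24 h) left out. DDX19B, its near-identical neighbour, was not called, at -0.61 and -0.71 in HepG2 and 0.21 and 0.57 in Huh-7, and the division of shared reads between the pair is uncertain.

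The antiviral genes were the only role in which every tested member was called lower in all 4 comparisons. This role held 3 tested genes, and roles were assigned with earlier results of these data known, a single role for each helicase. The statement therefore covers these genes and not every helicase that may act in antiviral defence. DHX58 codes for LGP2, a relative of RIG-I that regulates the sensing of viral RNA, and was near the limit of detection in treated cells. It had 31 counts in the untreated HepG2 library and 71, 39 and 69 counts in the untreated Huh-7 libraries. No treated library of either line held more than 2 counts, so no fold is given. DDX60, an interferon-induced helicase reported to act with RIG-I, had 17.7 CPM in untreated HepG2, 0.789, 1.11 and 0.668 CPM at 12 h, and 0.592, 0.786 and 0.891 CPM at 24 h. It was lower 20.7-fold at 12 h (95% counting interval 13.4 to 33.4) and 23.2-fold at 24 h (15.2 to 37.8). In Huh-7 DDX60 had 2.99, 4.33 and 2.65 CPM untreated, 0.112, 0.114 and 0 CPM at 12 h, and 0.207, 0.311 and 0.412 CPM at 24 h, too few for a fold.

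DDX60L, a neighbour and close relative of DDX60, had 11.9 CPM in untreated HepG2, 5.29, 5.56 and 4.56 CPM at 12 h, and 2.86, 2.75 and 3.07 CPM at 24 h. Huh-7 libraries had 10.1, 11.0 and 10.8 CPM untreated, 2.12, 2.40 and 2.37 CPM at 12 h, and 2.89, 2.91 and 2.68 CPM at 24 h. The groups did not overlap in either line, and the lowest level was reached at 24 h in HepG2 but at 12 h in Huh-7. Its log2 change was -1.21 ± 0.170 and -2.04 ± 0.183 (SE) in HepG2, and -2.20 ± 0.157 and -1.90 ± 0.146 in Huh-7.

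The remaining 9 tested members are mitochondrial, DNA or less well placed helicases, and none of them was called higher by edgeR's test in any of the 4 comparisons. DDX28, of the mitochondrial large ribosomal subunit, was called lower in Huh-7 at 24 h, with 5.24 ± 0.823 CPM against 15.0 ± 0.490 CPM untreated. DHX30, another mitochondrial RNA helicase, had 295 ± 13.2 CPM at 24 h in Huh-7 against 164 ± 3.41 CPM untreated, a log2 change of 0.85. DDX11, a DNA helicase of sister chromatid cohesion, had log2 changes of 0.85 and 0.31 in HepG2 and 0.95 and 0.31 in Huh-7, not called. The change in Huh-7 at 24 h was -0.04 under plain library size.

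Of the 6 other members 3 were called lower at 12 h and 1 at 24 h in each line. DHX40 was called lower in 3 comparisons, at 19.0 ± 0.807 CPM at 12 h and 23.0 ± 3.44 CPM at 24 h in HepG2, against 49.1 CPM untreated, and at 30.1 ± 0.282 CPM at 12 h in Huh-7, against 64.3 ± 3.34 CPM untreated. In HepG2 at 24 h the call was lost without the third HepG2 library of that time, at -0.995 on the log2 scale. In Huh-7 at 24 h DHX40 had a log2 change of -0.77, which was not called. DDX59 fell to 17.9 ± 0.176 CPM at 12 h in HepG2, against 42.0 CPM untreated, and to 8.93 ± 0.216 CPM at 12 h and 7.55 ± 0.155 CPM at 24 h in Huh-7, against 21.3 ± 1.10 CPM untreated. DHX32 was called lower in HepG2 at 12 h, with 18.1 ± 0.461 CPM against 38.6 CPM untreated. Its other log2 changes, -0.41 in HepG2 at 24 h and -0.95 and -0.80 in Huh-7 at 12 and 24 h, were not called. DHX57 was called lower in Huh-7 at 12 h, with 26.0 ± 1.37 CPM against 52.4 ± 1.25 CPM untreated, but not without the second library of either Huh-7 group. Its other log2 changes were -0.64 and -0.29 in HepG2 at 12 and 24 h and -0.27 in Huh-7 at 24 h. DDX20, a component of the SMN complex that assembles splicing RNPs, was the exception in sign, at 0.62 and 0.77 in HepG2 and 0.40 and 0.17 in Huh-7, and was not called. DDX1 was not called in any of the 4.

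**Figure D4:**
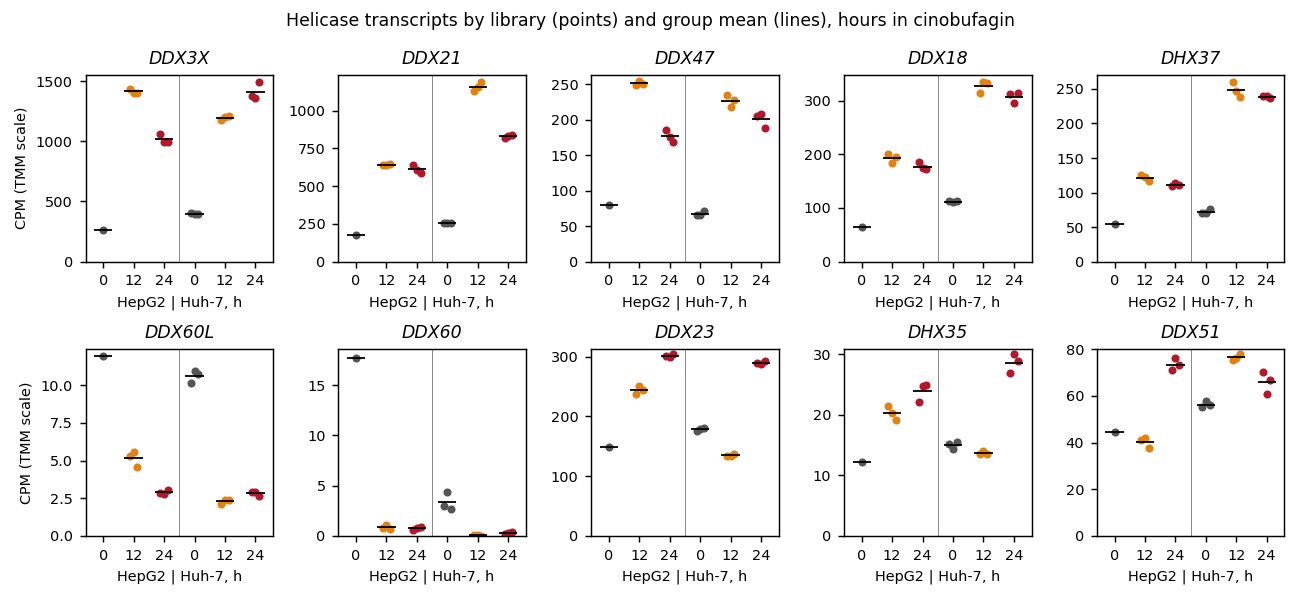
CPM on the TMM scale (vertical axes from 0, each with its own range) of 10 helicase genes in every library, with points for libraries, lines for group means and hours in cinobufagin along the bottom, HepG2 left and Huh-7 right in each panel. DDX3X, DDX21, DDX47, DDX18 and DHX37 are above their untreated level in all treated libraries and DDX60L and DDX60 below it, while DDX23 and DHX35 at 12 h are above it in HepG2 and below it in Huh-7, and DDX51 is highest at 24 h in HepG2 but at 12 h in Huh-7.

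The comparison of 24 h with 12 h of treatment was not used to choose the family, and it shows which helicases differed between those times. Drug and culture time cannot be told apart in it either. In Huh-7 edgeR called 2 of the 49 members higher and 0 lower, beside 6.51% and 6.54% of all tested genes. At an unadjusted p under 0.05, 26 members were higher and 15 lower, and DESeq2 also called 2 higher and 0 lower. In HepG2 edgeR called 0 higher and 0 lower, beside 6.54% and 5.31% of all genes, with 23 higher and 14 lower at an unadjusted p under 0.05, and DESeq2 called 0 and 0. For the unadjusted p and for DESeq2 no share of all genes was counted, here or in later comparisons. Nothing is read from those counts. With no minimum size of change, 39 members in Huh-7 and 35 in HepG2 had an adjusted p under 0.05, beside 61.5% of all genes in each line. Most members that differed between the times thus differed by less than 2-fold.

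DDX23, a component of the U5 particle that helps the tri-snRNP enter the spliceosome, had 289, 288 and 292 CPM at 24 h in Huh-7, against 133, 133 and 138 CPM at 12 h. The untreated Huh-7 libraries had 175, 179 and 181 CPM, so the gene was below that level at 12 h and above it at 24 h. The rise was 2.15-fold, a log2 change of 1.11 ± 0.0372 (SE), with an adjusted p of 1.82e-22 in edgeR's quasi-likelihood test. In HepG2 DDX23 had 301, 300.1 and 305 CPM at 24 h, against 237, 250.3 and 245 CPM at 12 h and 148 CPM untreated. There the log2 change was 0.31, with an edgeR adjusted p of 2.97e-09. DHX35, another splicing helicase, had 26.9, 30.0 and 28.8 CPM at 24 h in Huh-7, against 13.5, 13.9 and 13.5 CPM at 12 h, with 15.1, 14.3 and 15.6 CPM untreated. It rose 2.09-fold (log2 change 1.07 ± 0.0873, SE, edgeR adjusted p 1.61e-12). In HepG2 it had 22.1, 24.8 and 25.0 CPM at 24 h, against 21.4, 20.3 and 19.1 CPM at 12 h and 12.3 CPM untreated, a log2 change of 0.24 between the times (edgeR adjusted p 0.0127).

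DHX9, also known as RNA helicase A, was lower at 24 h than at 12 h in both lines. It had 189.9 ± 6.24 CPM at 24 h against 352 ± 14.3 CPM at 12 h in HepG2, and 216 ± 3.96 CPM at 24 h against 405 ± 6.82 CPM at 12 h in Huh-7. Its log2 change was -0.89 in HepG2 (edgeR adjusted p 1.48e-19) and -0.90 in Huh-7 (3.71e-20), and the difference between the lines was 0.01 ± 0.0532 (SE, edgeR adjusted p 0.883). At 24 h it stood below its untreated level of 259 CPM in HepG2 and 292 ± 6.04 CPM in Huh-7. In HepG2 DDX39A had the largest negative change, at -0.95 ± 0.0464 (SE, edgeR adjusted p 4.60e-18), leaving aside DHX58 with its few counts. DHX30 in Huh-7 changed by 0.97 (edgeR adjusted p 2.57e-19), the largest change under 2-fold there. DHX16, a helicase that activates the spliceosome, changed by 0.53 in HepG2 and 0.54 in Huh-7 (edgeR adjusted p 4.80e-13 and 2.45e-11).

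**Figure D5:**
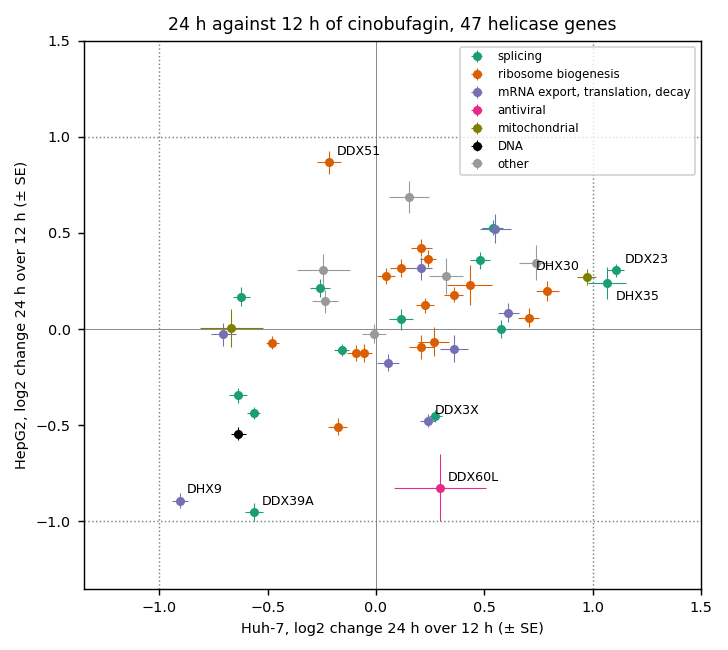
log2 change of 24 h over 12 h of cinobufagin in HepG2 (vertical axis) against Huh-7 (horizontal axis) for 47 helicase genes, with bars for the SE and colours for role, without DHX58 and DDX60. DDX23 and DHX35 lie furthest right at 1.11 and 1.07 in Huh-7, DDX51 is highest in HepG2 at 0.87, and DHX9 is low on both axes at -0.89 in HepG2 and -0.90 in Huh-7.

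A direct test of the difference between lines in the change from 12 to 24 h called 1 member higher and 1 lower, beside 6.92% and 5.24% of all genes. DESeq2 also called 1 and 1, and 32 members had an edgeR adjusted p under 0.05 at any size, beside 50.6% of all genes. DDX51, of the large ribosomal subunit pathway, had 70.9, 76.1 and 73.1 CPM at 24 h in HepG2, against 40.9, 41.9 and 37.7 CPM at 12 h. In Huh-7 it had 70.4, 60.6 and 66.6 CPM at 24 h, against 75.5, 76.0 and 78.1 CPM at 12 h. The change was 0.87 ± 0.0603 in HepG2 and -0.22 ± 0.0555 in Huh-7 (SE), and their difference was 1.08 ± 0.0822 with an edgeR adjusted p of 5.54e-13. DDX60L changed by -0.83 ± 0.174 (SE, edgeR adjusted p 0.000112) in HepG2 and by 0.30 ± 0.212 (0.289) in Huh-7. The difference was -1.12 ± 0.274 (SE, edgeR adjusted p 0.000889). DDX23 and DHX35 also differed between the lines, by -0.80 (edgeR adjusted p 8.40e-15) and -0.83 (6.41e-07), under the 2-fold limit. DDX3X differed by -0.72 (edgeR adjusted p 2.86e-14), since from 12 to 24 h it changed by -0.48 in HepG2 and by 0.24 in Huh-7.

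Before treatment few helicases differed by 2-fold between the lines. Of 49 members 1 was called higher in untreated HepG2 than in untreated Huh-7 and 0 lower, beside 13.8% and 13.1% of all tested genes. DESeq2 also called 1 and 0, and at an unadjusted p under 0.05 edgeR had 18 higher and 23 lower, both without a share of all genes. An adjusted p under 0.05 at any size was reached by 40 members, beside 69.7% of all genes. Without the second untreated Huh-7 library the counts were 2 and 1. DDX60 was the gene called, at 17.7 CPM in HepG2 against 2.99, 4.33 and 2.65 CPM in Huh-7, a 5.32-fold difference (log2 2.41 ± 0.225, SE, edgeR adjusted p 2.81e-11). The other members lay between -0.94, for DHX57, and 0.98, for DDX59. The single HepG2 library has no spread of its own and was assumed to vary like the other groups.

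The lines were also compared at each treated time. At 12 h 4 members were called higher in HepG2 than in Huh-7 and 3 lower, beside 18.0% and 15.9% of all genes, and at 24 h 4 were called higher and 4 lower, beside 19.9% and 16.7%. At any size of difference 40 members at 12 h and 42 at 24 h had an adjusted p under 0.05, beside 77.0% and 78.8% of all genes. Without the first Huh-7 library of 12 h only 2 were called higher at that time, as under upper-quartile scaling and plain library size. DDX27 and DHX37, of ribosome biogenesis, and DDX42, a helicase of the U2 particle, were lower in HepG2 at both times. DDX42 had 62.0 ± 0.689 CPM in HepG2 against 217 ± 4.08 CPM in Huh-7 at 12 h, a log2 difference of -1.81 (edgeR adjusted p 4.19e-27), and 69.6 ± 0.916 CPM against 141 ± 6.40 CPM at 24 h. Untreated, it had 128 CPM in HepG2 and 149.9 ± 2.70 CPM in Huh-7. DDX27 had 72.7 ± 1.35 CPM in HepG2 against 163 ± 2.21 CPM in Huh-7 at 12 h, and 93.7 ± 0.553 CPM against 192 ± 0.954 CPM at 24 h. DHX16 was higher in HepG2 at both times, with 121 ± 3.54 CPM against 59.5 ± 1.26 CPM in Huh-7 at 12 h and 175 ± 4.45 CPM against 86.4 ± 0.768 CPM at 24 h. DDX59 was higher by 1.01 at 12 h and by 1.55 at 24 h on the log2 scale (edgeR adjusted p 1.55e-10 and 7.81e-16). DDX39A was lower in HepG2 at 24 h by a log2 difference of -1.15 (edgeR adjusted p 1.67e-21). DDX60 was called higher in HepG2 at 24 h with an edgeR adjusted p of 0.0292, which DESeq2 put at 0.0651 and which was 0.0579 to 0.102 when any of 4 treated libraries (Huh-7 replicates 1 and 2, HepG2 replicates 2 and 3) was left out.

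Other RNA helicases, of the eIF4A, SKI2, UPF1 and RIG-I classes, were set beside the family as a list of 22 tested genes chosen with earlier results known. In HepG2 4 were called higher and 5 lower at 12 h (14.3% and 23.6% of all genes) and 2 and 4 at 24 h (14.1% and 22.3%). In Huh-7 the calls were 5 and 4 at 12 h (16.8% and 27.1%) and 6 and 2 at 24 h (17.9% and 26.9%). Their median log2 change was 0.06 and 0.12 in HepG2 and 0.16 and 0.30 in Huh-7, and it was negative in all 4 comparisons under plain library size. RIGI, the viral RNA sensor once named DDX58, was lower in all 4, at -2.22 and -2.11 in HepG2 and -1.83 and -1.64 in Huh-7. IFIH1, which codes for the sensor MDA5, was also lower in all 4. UPF1, the helicase of nonsense-mediated decay, was higher in all 4 by 1.20 to 1.59, but was not called in all 4 under plain library size. EIF4A1, the helicase that unwinds the leaders of most mRNAs, was not called, at 0.59 and 0.27 in HepG2 and -0.09 and -0.15 in Huh-7.

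The partners of DDX39B in the TREX export complex numbered 15. In HepG2 6 were called higher and 1 lower at 12 h and 4 and 0 at 24 h, and in Huh-7 6 and 1 at 12 h and 7 and 1 at 24 h, beside the shares of all genes just given. Under plain library size, for which no share of all genes was counted, the calls were 6 and 3, 3 and 0, 4 and 2, and 4 and 1 in that order. ALYREF, NXF1 and ZC3H11A were higher in all 4, of which NXF1, the export receptor, was so under every scaling, at 1.55 and 1.75 in HepG2 and 2.93 and 2.35 in Huh-7. Of 14 partners of DDX6 in repression and decay, 5 were called higher and 1 lower in HepG2 at 12 h, 4 and 0 at 24 h, and in Huh-7 7 and 2 at 12 h and 5 and 1 at 24 h. DCP1A, LSM1 and PATL1, which work at decapping, were higher in all 4, but none of the 14 was called in all 4 under upper-quartile scaling or plain library size. The decapping factor DCP1A changed by 1.62 and 1.09 in HepG2 and by 1.77 and 2.17 in Huh-7.

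Cofactors of the helicases, mostly G-patch proteins and partners of eIF4A, numbered 25. In HepG2 4 were called higher and 3 lower at 12 h and 5 and 2 at 24 h, and in Huh-7 6 and 3 at 12 h and 10 and 3 at 24 h. SON, a G-patch protein of nuclear speckles, was higher in all 4 under every scaling, at 1.68 and 1.30 in HepG2 and 1.97 and 1.55 in Huh-7. GLE1, which activates DDX19 at the nuclear pore, was lower in all 4 under every scaling. It changed by -2.11 and -1.23 in HepG2 and by -3.03 and -1.87 in Huh-7. DDX19A itself was called higher in 3 of the 4, but only the call in Huh-7 at 24 h held under every scaling. Of 12 proteins of the exon junction complex, which is deposited on spliced mRNA around eIF4A3, 3 were called higher and 1 lower in HepG2 at 12 h and 4 and 1 at 24 h, and in Huh-7 3 and 1 at both times. MAGOH, a core subunit, was higher in all 4 by 1.19 to 1.43, but not in all 4 under upper-quartile scaling or plain library size.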

How the data were processed

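Polyadenylated RNA of 16 libraries was sequenced on an Illumina instrument, per the labels' protocols. Each deposited table pairs gene identifiers with the authors' expected counts, FPKM values and gene lengths, per the file headers. HISAT, Bowtie2, RSEM and the hg19 build were used, per the submitters' processing notes, with versions not given in the sources used here. Unlisted genes were entered as 0. Gene names (16665 of 16697) and promoters came from RefSeq tables on GRCh38.p14, with the first listed start where a member had several (11 members).

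Expected counts were rounded and tested with edgeR 4.0.16 (limma 3.58.1, R 4.3.3) after filterByExpr, which left 13633 genes and removed 3064 holding 0.0231% of counts. Libraries were scaled by TMM (factors 0.889 to 1.24). A quasi-likelihood model with 6 group coefficients was fitted over all 16 libraries (10 residual degrees of freedom, biological coefficient of variation 0.0318). Levels are CPM on the TMM scale, means with SD, and marker levels are CPM without TMM. The scripts were tested on simulated data. Python 3.11.15, pandas 2.3.3 and matplotlib 3.10.9 were used for the tables and plots.

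The members, gene lists, roles and tests were chosen with earlier results of these data known. Values of every library were given by rule for the 6 members with the highest FPKM, those called alike at both times in both lines, those called between 24 and 12 h, those called in the difference of that change between lines and the extreme called members between untreated lines. DDX50, DHX36 and others described outside that rule, and the 4 promoter motifs, were chosen after their values were seen. Same-numbered libraries of different groups showed little shared deviation (12 pairs, correlations -0.0756 to 0.1047, 1 over 0.1). The libraries were therefore treated as unpaired, but a weak pairing could be hidden by counting noise in this check. All replicate pairs differed beyond sampling noise. Intervals and the floor of 3 counts cover counting error only. Alternatives were RLE, upper-quartile and plain library-size scaling, no filter, DESeq2 1.42.0, a replicate block, a fit of 1 line alone and leaving out each library that had replicates. APOB, TTR, SERPINA1 and ALB were not analysed here.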

Additional observations from a re-analysis of the deposited data

Results flagged for a closer look

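For a pair of helicases the change from 12 to 24 h of cinobufagin differed between the lines by an interaction test. DDX51 had a log2 change of 0.87 in HepG2 and -0.22 in Huh-7, a difference of 1.08 (edgeR adjusted p 5.54e-13), with all 3 HepG2 libraries of 24 h above those of 12 h and all 3 Huh-7 libraries of 24 h below those of 12 h. Its expected counts were not whole in any of the 16 libraries, so its level is less certain. DDX60L had -0.83 in HepG2 and 0.30 in Huh-7, a difference of -1.12 (edgeR adjusted p 0.000889), with all 3 HepG2 libraries of 24 h below those of 12 h and all 3 Huh-7 libraries of 24 h above them. The Huh-7 change alone had an edgeR adjusted p of 0.289, at a low level of 2.30 CPM at 12 h and 2.83 CPM at 24 h. A rise in Huh-7 is therefore not shown. Expected counts of DDX60L were not whole in 4 libraries, so its level is less certain too.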

How the results depend on the processing

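Most counts and single values were scored as unchanged. These were 116 of 132 counts of members and 577 of 600 values of named members under the settings that keep all libraries. When a library was left out they were 297 of 300 counts and 1326 of 1335 values. A count was scored so if it stayed within 1.5 times of the main one. A value was scored so if it kept its call and its sign, but signs were not compared for members not called against untreated. Under upper-quartile scaling the members called higher against untreated were 7 in HepG2 at 12 h, 7 in Huh-7 at 12 h and 10 in Huh-7 at 24 h, and 7 were lower in HepG2 at 24 h. Under plain library size they were 4, 4, 7 and 9 higher in HepG2 at 12 and 24 h and in Huh-7 at 12 and 24 h, with 7 lower in HepG2 at 24 h and 11 lower in Huh-7 at 12 h. Between untreated lines 2 members were lower in HepG2 under upper-quartile scaling and 1 under plain library size. At 12 h 2 were higher in HepG2 under each of these scalings. With the replicate number as a block, 2 members were higher and 1 lower between untreated lines, and no other count moved by over 1.5 times. Under the block the calls of DDX39A in HepG2 at 12 h (log2 0.9927), of DHX40 in HepG2 at 24 h (-0.99) and of DDX60 between lines at 24 h (adjusted p 0.122) were lost. The block goes by replicate number alone, and same-numbered libraries showed little shared deviation.

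Leaving out a library gave 10 to 11 members higher and 8 lower in HepG2 at 12 h, 12 to 13 and 3 to 4 in HepG2 at 24 h, 10 to 11 and 6 to 8 in Huh-7 at 12 h, and 15 to 16 and 6 in Huh-7 at 24 h. Between 24 and 12 h it gave 0 and 0 in HepG2 and 2 to 3 and 0 in Huh-7. Between lines it gave 1 to 2 higher and 0 to 1 lower untreated, 2 to 5 and 3 at 12 h, and 3 to 4 and 3 to 5 at 24 h. The difference of the 24 h over 12 h change gave 1 and 1. The change of DDX60 in HepG2 between 24 and 12 h ran from -0.3122 to 0.0703, the highest without the second HepG2 library of 12 h, against -0.18 with all libraries. The line difference of DDX60L at 24 h ran from -0.0096 to 0.0698 and was negative without Huh-7 replicate 3 or HepG2 replicate 3, against 0.03 with all libraries. Depth limits DHX58 and DDX60, and the cause of the other shifts was not tested.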
